A study of Mus musculus with 36 samples.

Results

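The genes described here are the D cyclins Ccnd1, Ccnd2 and Ccnd3, their partner kinases Cdk4 and Cdk6, and the kinase inhibitors Cdkn2a, Cdkn2b, Cdkn2c and Cdkn1c. They were taken by gene symbol from the array annotation, which gave 9 genes of 12393, on 19 probe sets of 22690. A probe set is the group of short probes that reads 1 transcript. RNA from mouse embryonic fibroblasts was hybridized to 36 Affymetrix arrays, 18 from wild type cells and 18 from PKBa-/- cells, which lack Akt1, the gene of protein kinase B alpha. The labels give the times 0, 2, 6, 24 and 48 with no unit. At time 2 a genotype was read on 2 arrays, numbered replicates 1 and 2, and at every other time on 4, numbered 1 to 4. The cells of both genotypes came from 13.5-day embryos of crosses between heterozygous PKBa mice, without head and visceral organs, were kept in DMEM with 10% foetal calf serum, and were used at passages 15 to 20. The labels do not say how many embryos or lines each genotype represents, nor that the replicates were separate cultures. The p-values therefore measure the spread between these samples, which may be technical. The title speaks of DMEM treatment, the protocol also describes an adipocyte induction medium, and the labels do not say which of these the arrays received.

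D-type cyclins are made when growth factors act on a cell. They bind the kinases CDK4 and CDK6, and the complexes phosphorylate the retinoblastoma protein, which then releases E2F transcription factors that switch on the genes of DNA replication. The INK4 inhibitors (p16 and its relatives p15, p18 and p19) bind CDK4 and CDK6 and keep the cyclins off. In cultured embryo fibroblasts, p16 and the ARF protein from the same locus are known to build up with passage. PKB phosphorylates GSK3, a kinase that marks cyclin D1 protein for breakdown, and FOXO factors, which act on D cyclin and inhibitor genes. Arrays read RNA only, so neither cyclin protein nor kinase activity was measured.

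Akt1 signal was 1117 ± 183 (SD, n = 18) in the wild type arrays and 74.35 ± 14.3 (SD, n = 18) in the PKBa-/- arrays, whose highest value (103) lay under the lowest wild type value (843). The median signal of an array lay between 134 and 145; precision depends on how many arrays there are. Replicates 1 and 2 of a group, and replicates 3 and 4, formed close pairs (correlation 0.982 to 0.997) beside 0.942 to 0.989 between pairs. Each pair was therefore averaged and counted as 1 replicate, which left 2 replicates a group and 1 at time 2. The fit took pairs of different times as independent. Deviations of same-numbered arrays correlated between time 0 and later times of a genotype (mean 0.418). The p-values of genotype differences averaged over times may therefore be too small, and those of changes over time within a genotype too large. All 10 fibroblast markers were on average above the signal limit of the test (about 123), with summed signals of 52991 to 65814 in wild type and 60072 to 69171 in PKBa-/-; the lowest arrays of Pdgfrb (77) and Thy1 (104) were under it. Single markers differed between the genotypes in both directions. The matrix genes Dcn (7120 ± 2380 in wild type and 767 ± 404 in PKBa-/-, SD, n = 18 each) and Lum (1170 ± 848 and 399 ± 357) were lower in PKBa-/-, and Thy1 (1010 ± 905 and 4140 ± 1280) and Pdgfrb (410 ± 244 and 921 ± 350) higher (limma, adjusted p from 3.2e-08 for Dcn to 0.025 for Lum). Of the other lists, 1 of 7 leukocyte, 1 of 6 skeletal muscle and none of 7 epithelial markers were above it. Of adipocyte markers 2 of 5, Lpl and Cebpa, were above the limit. Lpl was lower in PKBa-/- (3380 ± 860 in wild type and 924 ± 343 in PKBa-/-, SD, n = 18 each). Cebpa went the other way (200 ± 29.7 and 272 ± 89.4). The sum of all 5 was 2432 to 5737 in wild type and 899 to 2037 in PKBa-/-, with no overlap, and was mostly Lpl. The fat cell gene Adipoq stayed at 14 to 25. The endothelial sum, in which 1 of 6 genes (Kdr) was above the limit, was 568 to 1741 and 336 to 547. The part of these marker differences in the results below was not tested.

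Of the 9 genes, 7 were bright enough to be tested; Cdk6 and Cdkn1c were not. The first question was how the genotypes differed. Averaged over the 5 times, Ccnd3, Cdkn2a and Cdkn2b were higher and Ccnd1 and Cdkn2c lower in PKBa-/- cells, while Ccnd2 and Cdk4 did not pass. A gene passed at a limma p, adjusted by Benjamini-Hochberg over the 7436 tested genes, under 0.05. These 5 of 7 stand beside 47.4% of all tested genes that passed in the same comparison, 26.5% higher and 20.9% lower. The median difference of the 7 genes was 0.11 on the log2 scale, and that of all tested genes 0.03. At 1 or more single times, 4 of 7 passed (Ccnd3, Cdkn2a, Cdkn2b and Cdkn2c), beside 34.3% of all tested genes. In bulk RNA, fewer cells that express a gene and less RNA per cell cannot be told apart.

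**Figure D1:**
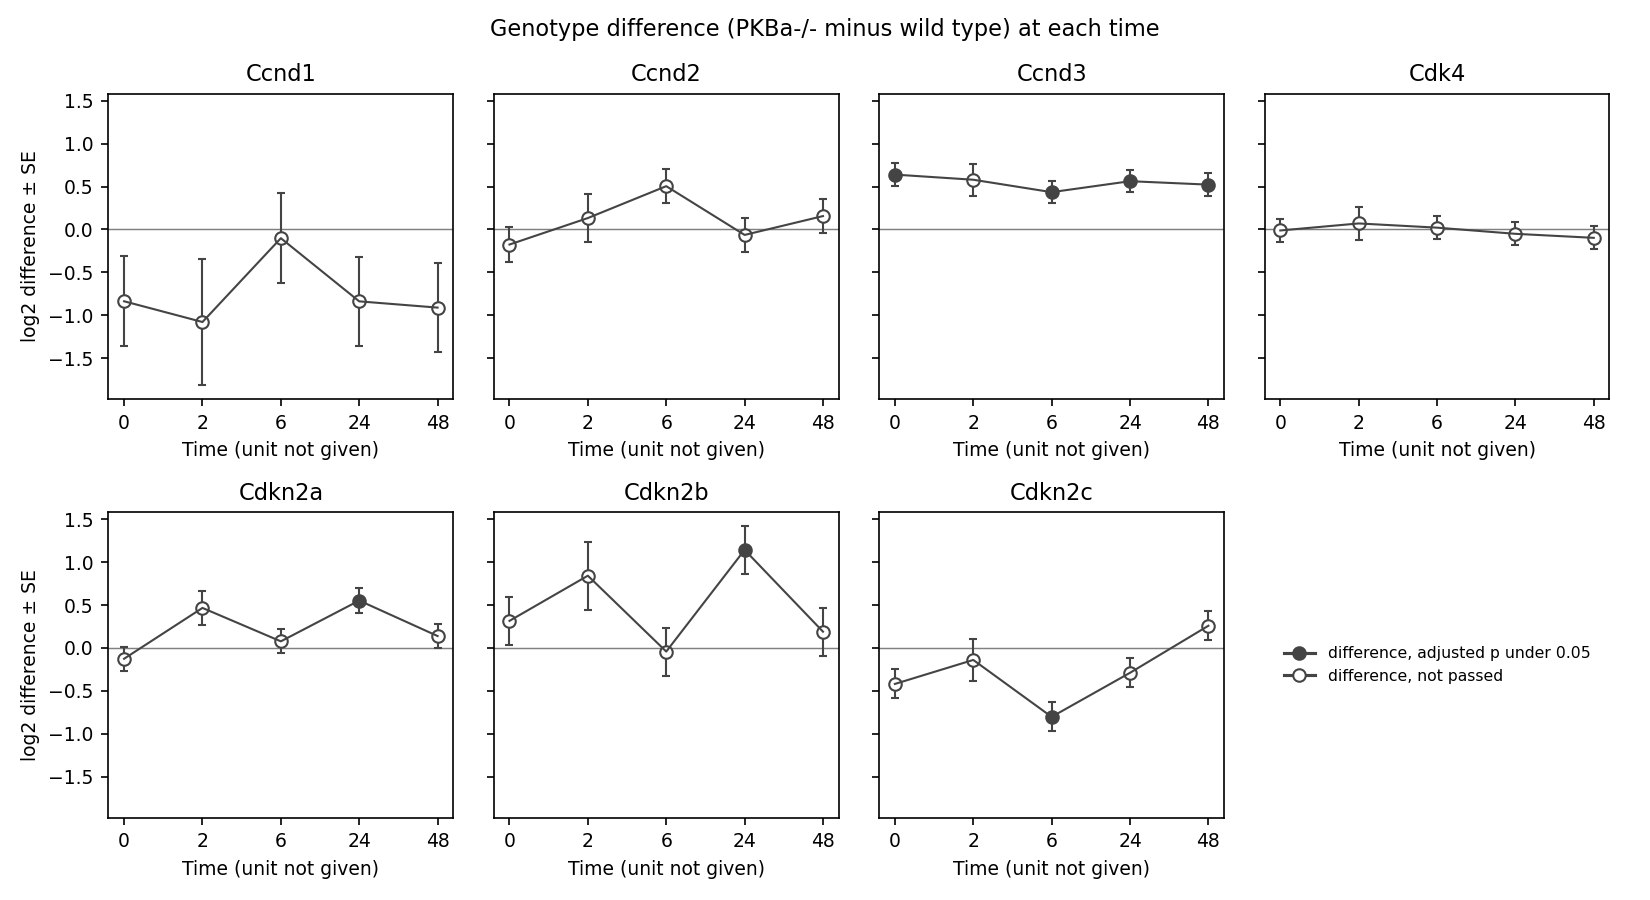
The log2 difference PKBa-/- minus wild type (vertical axis, ± SE from the limma fit) at each time (horizontal axis, unit not given) for the 7 tested genes, filled where the adjusted p was under 0.05. Ccnd3 lies between 0.43 and 0.64 at all 5 times, Cdk4 near 0, and Cdkn2b passes at time 24 alone with 1.14.

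Ccnd3, which encodes cyclin D3, passed at 4 of the 5 times, more than any other of the 7 members tested. Averaged over times it was higher in PKBa-/- by 0.55 ± 0.06 (SE, log2, adjusted p = 2.2e-05), a 1.46-fold difference. Within replicates 1 and 2 the difference was 0.58 and within replicates 3 and 4 it was 0.50. Here and below, averages within replicates 3 and 4 leave out time 2, at which they have no arrays, so the 2 averages cover unlike times. In wild type cells its signal was 1071, 1083, 990 and 1061 at time 0 (replicates 1 to 4), 1191 and 1294 at time 2, and 1933, 1806, 2028 and 2090 at time 6. It was 1648, 1545, 2035 and 1678 at time 24 and 1912, 1841, 1410 and 1546 at time 48. The time 0 arrays were thus the lowest of the wild type arrays and the time 6 arrays held the highest value.

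In PKBa-/- cells Ccnd3 signal was 1840, 1636, 1558 and 1597 at time 0, 1757 and 1993 at time 2, and 2882, 2777, 2480 and 2534 at time 6. It was 2521, 2539, 2569 and 2580 at time 24 and 2432, 2561, 2357 and 2283 at time 48. At each of the 5 times every PKBa-/- array lay above every wild type array of that time, a pattern shown by 6.79% of all tested genes. The difference passed at time 0 (0.64 ± 0.13, adjusted p = 0.0061), time 24 (0.56 ± 0.13, adjusted p = 0.0094) and time 48 (0.52 ± 0.13, adjusted p = 0.013). At time 6 it was 0.43 ± 0.13 (adjusted p = 0.041), and without wild type replicate 4 of time 24 it no longer passed (adjusted p = 0.058), nor without wild type replicate 4 of time 48 (adjusted p = 0.051). At time 2, with 1 pair per genotype, it was 0.58 ± 0.19 and did not pass (adjusted p = 0.1). In those 5 comparisons 14.8%, 5.78%, 16.5%, 20.4% and 23.2% of all tested genes passed at times 0, 2, 6, 24 and 48.

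In both genotypes Ccnd3 rose by time 6 and stayed up. In wild type the change from time 0 was 0.88 ± 0.13 at time 6 (1.84-fold, adjusted p = 0.0015), 0.69 at time 24 (adjusted p = 0.0093) and 0.65 at time 48 (adjusted p = 0.013). In PKBa-/- it was 0.68 ± 0.13 at time 6 (1.6-fold, adjusted p = 0.0044), 0.62 at time 24 (adjusted p = 0.016) and 0.53 at time 48 (adjusted p = 0.028). By time 2 the changes were 0.23 and 0.17 and did not pass. The difference between the 2 genotypes' changes ran from -0.20 to -0.06 over the 4 later times and did not pass. Its widest 95% interval, at time 2, was -0.56 to 0.43. In the order of the 10 group means, wild type at time 0 (1051 ± 41.9, n = 4) was lowest, wild type at time 2 (1243 ± 72.8, n = 2) next and PKBa-/- at time 6 (2668 ± 192, n = 4) highest. The arrays of wild type at times 0 and 2 overlapped with no other group. Another gap in the order separated PKBa-/- at times 6, 24 and 48 from the rest, and the other 6 pairs of neighbours overlapped.

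**Figure D2:**
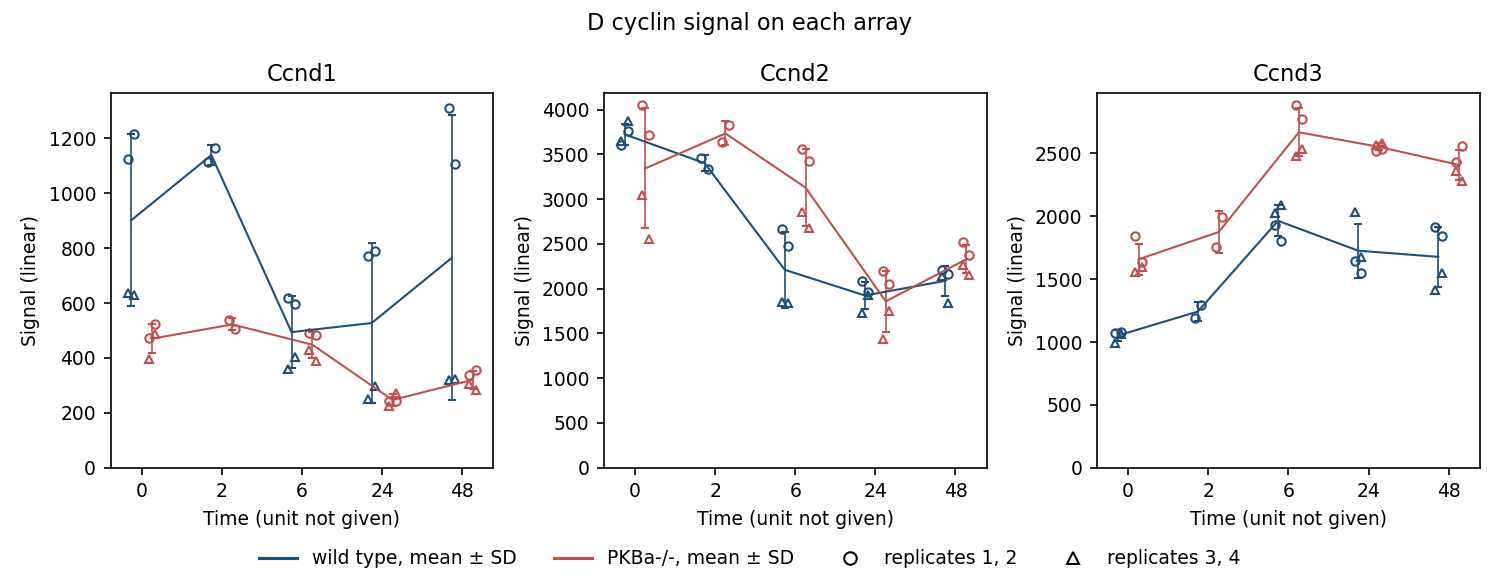
Signal on a linear scale (vertical axis) for each array of the 3 D cyclins by time (horizontal axis, unit not given), with lines through group means ± SD; circles are replicates 1 and 2, triangles replicates 3 and 4. For Ccnd3 every PKBa-/- array lies above every wild type array of its time, and for Ccnd1 the wild type circles lie above the wild type triangles at times 0, 6, 24 and 48.

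Promoter stretches are shown for Ccnd3, for Cdk4, the gene that varied least, and for Cdkn2b, the inhibitor that moved most with time, from RefSeq (mouse build GRCm38.p6). RefSeq windows were at hand for 6 of the 9 genes. Each stretch runs 5′ to 3′ on the gene's strand up to the base before the transcription start. Capitals mark a GC box (GGGCGG or its reverse complement CCGCCC) in Ccnd3 at the start nearer the gene's end (chr17:47593337-47593466, plus strand). They also mark E-boxes (CACGTG, the letters MYC binds) in Cdk4 (chr10:127063355-127063534, plus strand) and a cAMP response element (TGACGTCA) in Cdkn2b (chr4:89311033-89311162, minus strand).
Ccnd3: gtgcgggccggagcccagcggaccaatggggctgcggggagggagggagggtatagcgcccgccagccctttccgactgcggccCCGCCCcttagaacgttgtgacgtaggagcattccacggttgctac
Cdk4: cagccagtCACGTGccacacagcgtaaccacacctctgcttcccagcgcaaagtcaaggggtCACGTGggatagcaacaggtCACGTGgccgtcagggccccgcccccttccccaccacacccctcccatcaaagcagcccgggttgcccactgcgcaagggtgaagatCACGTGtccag
Cdkn2b: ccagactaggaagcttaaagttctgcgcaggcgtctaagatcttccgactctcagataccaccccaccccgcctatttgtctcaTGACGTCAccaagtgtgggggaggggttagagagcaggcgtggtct

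In Cdk4 the 4 E-boxes began 172, 118, 98 and 11 bases before the start, and a GC box, not in capitals, began at 80. Over the 250 bases before the start of 32851 RefSeq promoters, 6.02% held an E-box, 1.55% the cAMP response element and 32.7% a GC box, on either strand. The motif in Ccnd3 and that in Cdkn2b both began 46 bases before the start, and no motif overlapped another. The AP-1 letters TGACTCA and TGAGTCA (4.46% of promoters) and the E2F letters TTTGGCGC, TTTCGCGC and TTTCCCGC (1.53%) were also searched; these 3 stretches held neither. A match describes letters and was not tested as a site.

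Ccnd1, which encodes cyclin D1, was lower in PKBa-/- by 0.75 ± 0.26 when averaged over times (log2 difference -0.75, adjusted p = 0.028), a 1.69-fold difference. The size rested on replicates 1 and 2, within which the difference was -1.16, while within replicates 3 and 4 it was -0.16. With no filter on low values the adjusted p was 0.053. No single time passed.

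In wild type cells Ccnd1 signal was 1126, 1216, 636 and 628 at time 0, 1113 and 1165 at time 2, and 617, 596, 360 and 404 at time 6. It was 772, 789, 252 and 296 at time 24 and 1309, 1107, 321 and 322 at time 48. Replicates 1 and 2 were above replicates 3 and 4 at each of the 4 times that had both, by 1.85-fold at time 0, 1.59-fold at time 6, 2.85-fold at time 24 and 3.76-fold at time 48. In PKBa-/- cells the signal was 474, 523, 397 and 486 at time 0, 538 and 506 at time 2, and 492, 482, 429 and 390 at time 6. It was 245, 245, 224 and 274 at time 24 and 337, 357, 305 and 283 at time 48. The PKBa-/- pairs differed little on this probe set, with ratios of 0.984 to 1.19. At times 0 and 2 every PKBa-/- array was below every wild type array, and at times 6, 24 and 48 the genotypes overlapped. Time 2 sets 1 pair against 1 pair. Here and below, the share of all tested genes without overlap at a single time was not counted.

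The fitted Ccnd1 difference was -0.84 ± 0.52 at time 0 (adjusted p = 0.31), -1.08 ± 0.74 at time 2 (adjusted p = 0.54), -0.10 ± 0.52 at time 6 (adjusted p = 0.94), -0.84 ± 0.52 at time 24 (adjusted p = 0.31) and -0.91 ± 0.52 at time 48 (adjusted p = 0.24). In the fit as reported, the changes from time 0 did not pass in either genotype (F test, adjusted p = 0.43 in wild type and 0.59 in PKBa-/-). With each array as a replicate and the pair as a random effect, wild type passed (adjusted p = 0.041) and PKBa-/- did not (adjusted p = 0.12). With the replicate pair as a covariate within each genotype, both passed the F test (adjusted p = 0.011 in wild type and 0.0073 in PKBa-/-). Whether Ccnd1 changed with time thus depends on the fit. At time 24 the change was -0.84 ± 0.52 in wild type and also -0.84 in PKBa-/-. The other Ccnd1 probe sets, 1417420_at and 1417419_at, gave the same calls between the genotypes: all 3 were lower averaged over times and passed, at -0.88 to -0.69, and none passed at a single time. Their wild type pair ratios at time 48 were 5.03 and 3.87. On 1417420_at the PKBa-/- pairs stood apart too, with ratios of 1.58 at time 0, 1.49 at time 6, 1.64 at time 24 and 1.3 at time 48, while on 1417419_at they were 0.879 to 1.28. PKBa-/- at time 24 (246.9 ± 20.6, n = 4) was the lowest of the 10 groups and wild type at time 2 (1139 ± 37, n = 2) the highest. In the order of the group means PKBa-/- at time 24 did not overlap with PKBa-/- at time 48, nor that group with PKBa-/- at time 6, and the other 7 pairs of neighbours overlapped.

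**Figure D3:**
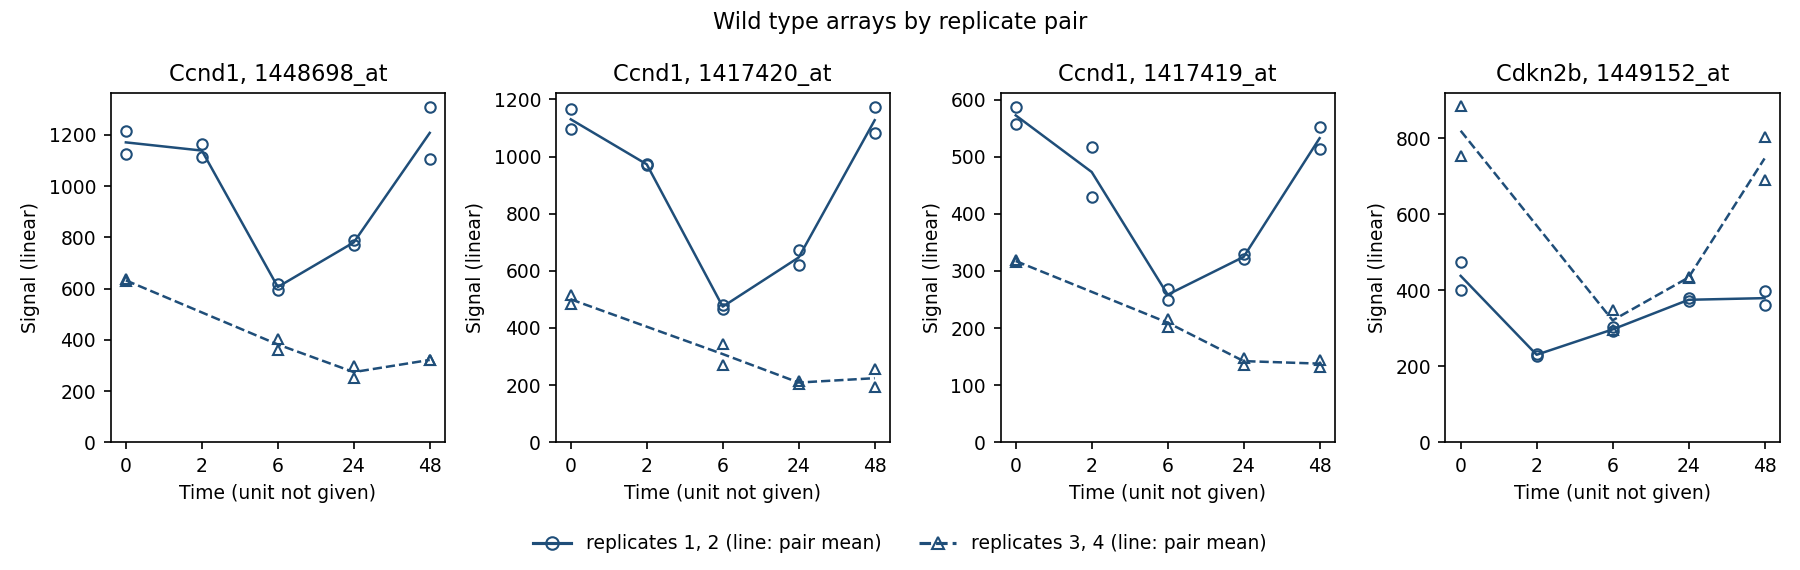
Signal on a linear scale (vertical axis) of each wild type array by time (horizontal axis, unit not given) for the 3 Ccnd1 probe sets and for Cdkn2b, with lines through the means of replicates 1 and 2 (solid) and 3 and 4 (dashed, no arrays at time 2). The solid line lies above the dashed line for Ccnd1 and below it for Cdkn2b, by ratios of 3.76 (1448698_at) and 0.508 at time 48.

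Ccnd2, which encodes cyclin D2, did not pass between the genotypes (averaged difference 0.11 ± 0.10, adjusted p = 0.38, 95% interval -0.10 to 0.32) but fell with time in both. In wild type its signal was 3608, 3758, 3652 and 3878 at time 0, 3463 and 3340 at time 2, and 2666, 2480, 1851 and 1844 at time 6. It was 2084, 1960, 1724 and 1926 at time 24 and 2203, 2163, 2146 and 1837 at time 48. Every wild type array of times 6, 24 and 48 was below every array of times 0 and 2. The change from time 0 was -0.76 ± 0.20 at time 6 (1.7-fold lower, adjusted p = 0.029), -0.94 ± 0.20 at time 24 (1.92-fold lower, adjusted p = 0.016) and -0.83 ± 0.20 at time 48 (1.78-fold lower, adjusted p = 0.029).

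In PKBa-/- cells Ccnd2 signal was 4049, 3719, 3048 and 2558 at time 0, 3639 and 3828 at time 2, and 3556, 3424, 2852 and 2680 at time 6. It was 2192, 2057, 1436 and 1747 at time 24 and 2517, 2374, 2262 and 2154 at time 48. The arrays of time 6 overlapped with those of time 0, and those of times 24 and 48 lay below them. The change was -0.08 ± 0.20 at time 6 (adjusted p = 0.86) and -0.83 ± 0.20 at time 24 (adjusted p = 0.029). At time 48 it was -0.50 ± 0.20 and did not pass (adjusted p = 0.16). The fall at time 24 did not pass without PKBa-/- replicate 3 of time 0 (adjusted p = 0.053), nor on probe sets 1434745_at and 1455956_x_at (adjusted p = 0.07 and 0.057).

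At time 6 the PKBa-/- arrays of Ccnd2 (2680 to 3556) lay above the wild type arrays (1844 to 2666). The difference there was 0.50 ± 0.20 and did not pass (adjusted p = 0.11). The change by time 6 differed between the genotypes by 0.68 ± 0.28 (adjusted p = 0.49, 95% interval 0.07 to 1.29, not adjusted). Of 7 probe sets for Ccnd2, 5 were above the limit, and all 5 were higher in PKBa-/- at time 6, by 0.46 to 0.80, of which 2 passed in a fit over probe sets. In wild type all 5 fell and passed at times 6, 24 and 48. In PKBa-/- all 5 were lower at time 24, by 0.81 to 0.90, and 3 passed. Probe sets of a gene read the same RNA and are not replicates. In the order of the group means, PKBa-/- at time 24 (1858 ± 337, n = 4) was lowest and PKBa-/- at time 2 (3733 ± 133, n = 2) highest. PKBa-/- at time 48 and at time 6, the fifth and the sixth in that order, did not overlap, nor did wild type at times 2 and 0, and the other 7 pairs of neighbours overlapped.

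Of the kinases, Cdk4 varied least of the 9 genes, and no comparison of it passed. Its group means ran from 1809 ± 179 (wild type, time 6) to 2175 ± 35.7 (wild type, time 0; n = 4 each), a range of 0.27 on the log2 scale, and all 9 neighbours in their order overlapped. In wild type arrays the lowest, median and highest signals were 1592, 2083 and 2424, and in PKBa-/- arrays 1751, 2016 and 2346. The averaged difference was -0.01 ± 0.07 (adjusted p = 0.88), with a 95% interval of -0.15 to 0.13. The changes at time 6, -0.27 ± 0.13 in wild type (adjusted p = 0.23) and -0.23 ± 0.13 in PKBa-/- (adjusted p = 0.27), were the lowest of each genotype and did not pass. These values are from the brightest Cdk4 probe set. All 3 Cdk4 probe sets were tested and none passed in any comparison between genotypes or times. Their wild type changes by time 6 ran from -0.40 to -0.27, and the brightest changed least.

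Cdk6, the other D cyclin kinase, was dim on its probe set, at 65, 77 and 97 (lowest, median and highest) in wild type and 51, 68 and 85 in PKBa-/-. All 36 arrays lay below the limit of 123 and Cdk6 was not tested. In a fit with no filter on low values the averaged difference was -0.15 ± 0.04 (adjusted p = 0.027, where 34.0% of 12393 genes passed), and no single time passed. At such low signals a difference is compressed by the offset of 32 that was added before the logarithm. Akt1 read 44 to 103 in the PKBa-/- arrays, which lack it, so expression of Cdk6 is not shown either.

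**Figure D4:**
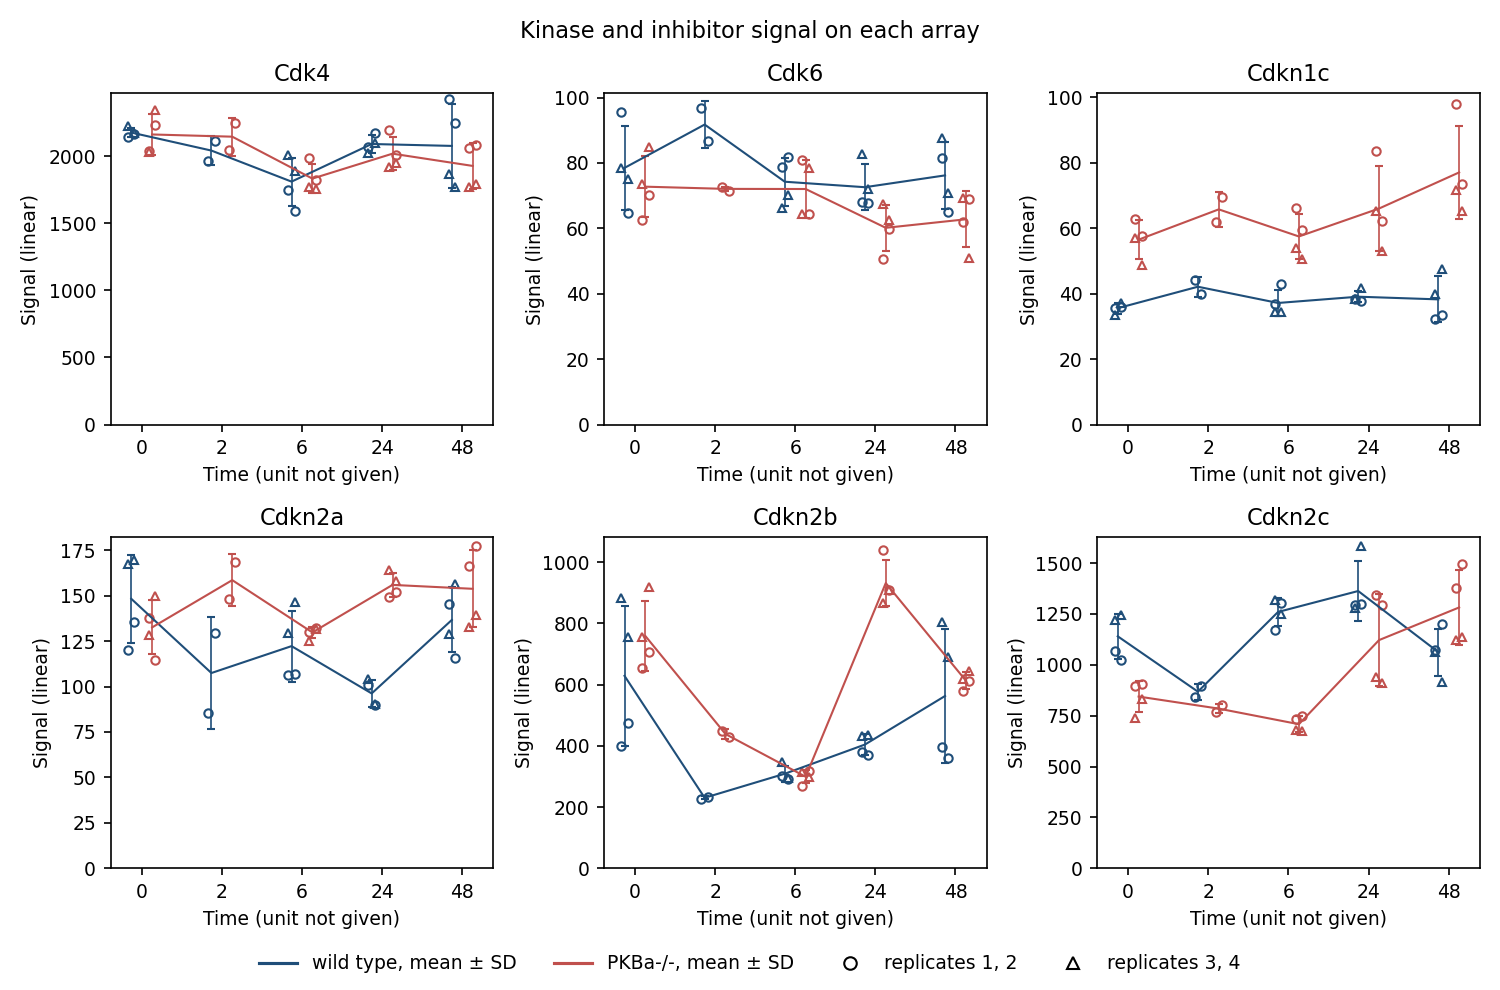
Signal on a linear scale (vertical axis, each panel with its own range from 0) for each array of Cdk4, Cdk6 and the 4 inhibitors by time (horizontal axis, unit not given), with lines through group means ± SD; circles are replicates 1 and 2, triangles replicates 3 and 4. Cdkn2b shows the PKBa-/- mean at 931.7 and the wild type mean at 404.1 at time 24, and Cdkn1c shows the genotypes apart at every time on a scale with no array above 98.

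Cdkn2b encodes p15, an INK4 inhibitor known as a target of TGF-beta, and lies on chromosome 4 next to Cdkn2a. Averaged over times it was higher in PKBa-/- by 0.49 ± 0.14 (1.4-fold, adjusted p = 0.011), by 0.67 in replicates 1 and 2 and by 0.18 in replicates 3 and 4. The largest of the 5 differences lay at time 24. At time 24 its signal was 378, 371, 432 and 435 in wild type and 1041, 911, 867 and 909 in PKBa-/-, with no overlap. That difference was 1.14 ± 0.28 (2.21-fold, adjusted p = 0.012), and each pair of replicates showed it (1.31 in replicates 1 and 2, 0.98 in replicates 3 and 4).

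At the other times the genotypes lay closer. Cdkn2b signal was 400, 475, 885 and 754 in wild type and 653, 706, 757 and 920 in PKBa-/- at time 0, and 227 and 233 against 449 and 428 at time 2. At time 6 it was 302, 292, 347 and 294 in wild type and 269, 317, 314 and 297 in PKBa-/-. At time 48 it was 398, 361, 803 and 690 in wild type and 578, 611, 617 and 645 in PKBa-/-. The genotypes overlapped at times 0, 6 and 48, and none of these 4 differences passed (time 2: 0.84 ± 0.40, adjusted p = 0.3).

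The lowest mean lay at time 2 in wild type and at time 6 in PKBa-/-. In PKBa-/- Cdkn2b fell by 1.25 on the log2 scale by time 6 (change -1.25 ± 0.28, 2.38-fold, adjusted p = 0.0093) and by time 24 it was at 0.29 ± 0.28 relative to time 0 (adjusted p = 0.68). In wild type the lowest signals were those of time 2, with a change of -1.27 ± 0.34 (adjusted p = 0.078), and the change was -0.89 ± 0.28 at time 6 (adjusted p = 0.059) and -0.53 ± 0.28 at time 24 (adjusted p = 0.33). None of these passed, nor did the F test over the 4 later times (adjusted p = 0.054). The change by time 24 differed between the genotypes by 0.83 ± 0.40 and did not pass (adjusted p = 0.68). The wild type pairs of Cdkn2b stood apart at times 0 and 48, where replicates 1 and 2 were at 0.534 and 0.508 times replicates 3 and 4. This is the opposite order to Ccnd1 in the same wild type arrays. In the order of the group means, wild type at time 2 (230.2 ± 4.59, n = 2) was lowest, with no overlap, PKBa-/- and wild type at time 6 (299 ± 21.9 and 308.8 ± 26.1, n = 4 each) followed and overlapped, and a gap parted them from the 7 higher groups, each of which overlapped with its neighbours.

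Cdkn2a, its neighbour on chromosome 4, encodes p16 and, in another reading frame, the p53 activator ARF; the symbol on its probe set does not separate them. It was dim, near the limit of 123, at 123.8 ± 26.2 in wild type and 144.8 ± 17.3 in PKBa-/- (SD, n = 18 each). It was thus kept for testing mainly through the PKBa-/- arrays, the group in which it was higher. Averaged over times it was higher in PKBa-/- by 0.22 ± 0.07 (1.17-fold, adjusted p = 0.018). In the limma fit with no filter on low values the adjusted p was 0.02. Replicates 1 and 2 alone gave 0.31 and replicates 3 and 4 alone 0.05, and the difference did not pass without wild type replicate 1 of time 2 (adjusted p = 0.052). At time 24 the signal was 101, 90, 104 and 91 in wild type and 149, 152, 164 and 158 in PKBa-/-. The genotypes did not overlap there and the difference passed (0.55 ± 0.14, 1.47-fold, adjusted p = 0.015), at 0.52 and 0.58 in the 2 replicate pairs.

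At the other times Cdkn2a signal was 120, 136, 167 and 170 in wild type and 138, 114, 129 and 150 in PKBa-/- at time 0, and 86 and 129 against 148 and 169 at time 2. At time 6 it was 106, 107, 129 and 147 against 130, 132, 125 and 132, and at time 48 it was 145, 116, 129 and 156 against 166, 177, 133 and 139. The genotypes overlapped at times 0, 6 and 48 and did not at time 2, and none of these 4 differences passed. No change from time 0 passed in either genotype; the wild type change at time 24 was -0.48 ± 0.14 (adjusted p = 0.071). All neighbours in the order of the group means overlapped, from wild type at time 24 (96.23 ± 7.24, n = 4) to PKBa-/- at time 2 (158.6 ± 14.4, n = 2). Cdkn2a and Cdkn2b thus both passed at time 24, and at no other single time. In that comparison 3 of the 7 tested members passed, beside 20.4% of all tested genes. The change of Cdkn2a by time 24 differed between the genotypes by 0.68 ± 0.20 and did not pass (limma, adjusted p = 0.25). A difference particular to time 24 is therefore not shown.

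Cdkn2c encodes p18, another INK4 inhibitor. It was lower in PKBa-/- by 0.28 ± 0.08 averaged over times (log2 difference -0.28, 1.21-fold, adjusted p = 0.015), at -0.14 in replicates 1 and 2 alone and -0.48 in replicates 3 and 4 alone. At time 6 its signal was 1169, 1305, 1318 and 1248 in wild type and 736, 746, 678 and 673 in PKBa-/-. The genotypes did not overlap, and this was the single time that passed (-0.80 ± 0.17, 1.75-fold, adjusted p = 0.0063). At time 0 it was 1068, 1026, 1220 and 1247 against 898, 906, 739 and 833, and at time 2 it was 841 and 895 against 768 and 801. PKBa-/- was below wild type on every array at these times too. The difference did not pass at time 0 (-0.42 ± 0.17, adjusted p = 0.12) or at time 2 (-0.14, 1 pair per genotype).

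At the late times the genotypes overlapped. Cdkn2c signal was 1292, 1297, 1281 and 1582 in wild type and 1342, 1292, 942 and 910 in PKBa-/- at time 24. At time 48 it was 1073, 1199, 1063 and 915 against 1376, 1494, 1122 and 1137, and the difference was 0.26 ± 0.17 (adjusted p = 0.31). Cdkn2c changed with time in PKBa-/- by the F test (adjusted p = 0.017), with the lowest mean at time 6 (708.1 ± 38.1, n = 4) and the highest at time 48 (1282 ± 183, n = 4; change 0.58 ± 0.17, adjusted p = 0.059). In wild type it did not pass (adjusted p = 0.18). The change by time 48 differed between the genotypes by 0.68 ± 0.24 (adjusted p = 0.27). In the order of the group means, PKBa-/- at time 6 did not overlap with PKBa-/- at time 2 (784.8 ± 23.2, n = 2), nor wild type at time 2 (868.2 ± 38.5, n = 2) with wild type at time 48 (1063 ± 116, n = 4). The other 7 pairs of neighbours overlapped, up to wild type at time 24 (1363 ± 146, n = 4).

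Cdkn1c encodes p57, an inhibitor of the CIP/KIP family whose gene is imprinted and active on the maternal chromosome. It was under the limit on all arrays and was not tested with the other genes. Its signal ran from 32 to 47 in wild type (38.01 ± 4.12, SD, n = 18) and from 49 to 98 in PKBa-/- (64.41 ± 12.1, SD, n = 18), so every PKBa-/- array exceeded every wild type array. Of the 4957 genes under the limit, 0.787% showed this. In the fit with no filter the averaged difference was 0.45 ± 0.05 (adjusted p = 7.7e-05). It passed at time 0 (0.39, adjusted p = 0.047), time 24 (0.45, adjusted p = 0.019) and time 48 (0.63, adjusted p = 0.0028), and not at times 2 and 6 (adjusted p = 0.25 and 0.057). These are low signals, and the offset of 32 compresses the difference. They are also no higher than those of Akt1 in the PKBa-/- arrays, which lack that gene (44 to 103). Whether Cdkn1c was expressed in either genotype is therefore not shown.

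Over time, Ccnd2 and Ccnd3 changed in wild type (2 of 7 by the F test over the 4 later times, beside 19.9% of all tested genes). Ccnd2, Ccnd3, Cdkn2b and Cdkn2c changed in PKBa-/- (4 of 7, beside 25.0%). Ccnd2 and Ccnd3 moved in opposite directions. By time 6, Ccnd3 rose and Ccnd2 fell in wild type (11.9% of all tested genes passed), and Ccnd3 rose and Cdkn2b fell in PKBa-/- (18.4%). By time 24, Ccnd3 rose and Ccnd2 fell in wild type (5.66%) and in PKBa-/- (6.15%). By time 48 the same 2 genes passed in wild type (6.01%) and Ccnd3 alone in PKBa-/- (7.45%). By time 2 no gene of the 7 passed in limma in either genotype (2.73% and 3.39%), where at an unadjusted p under 0.05 there were 2 in wild type, Cdkn2a and Cdkn2b, and 0 in PKBa-/-.

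**Figure D5:**
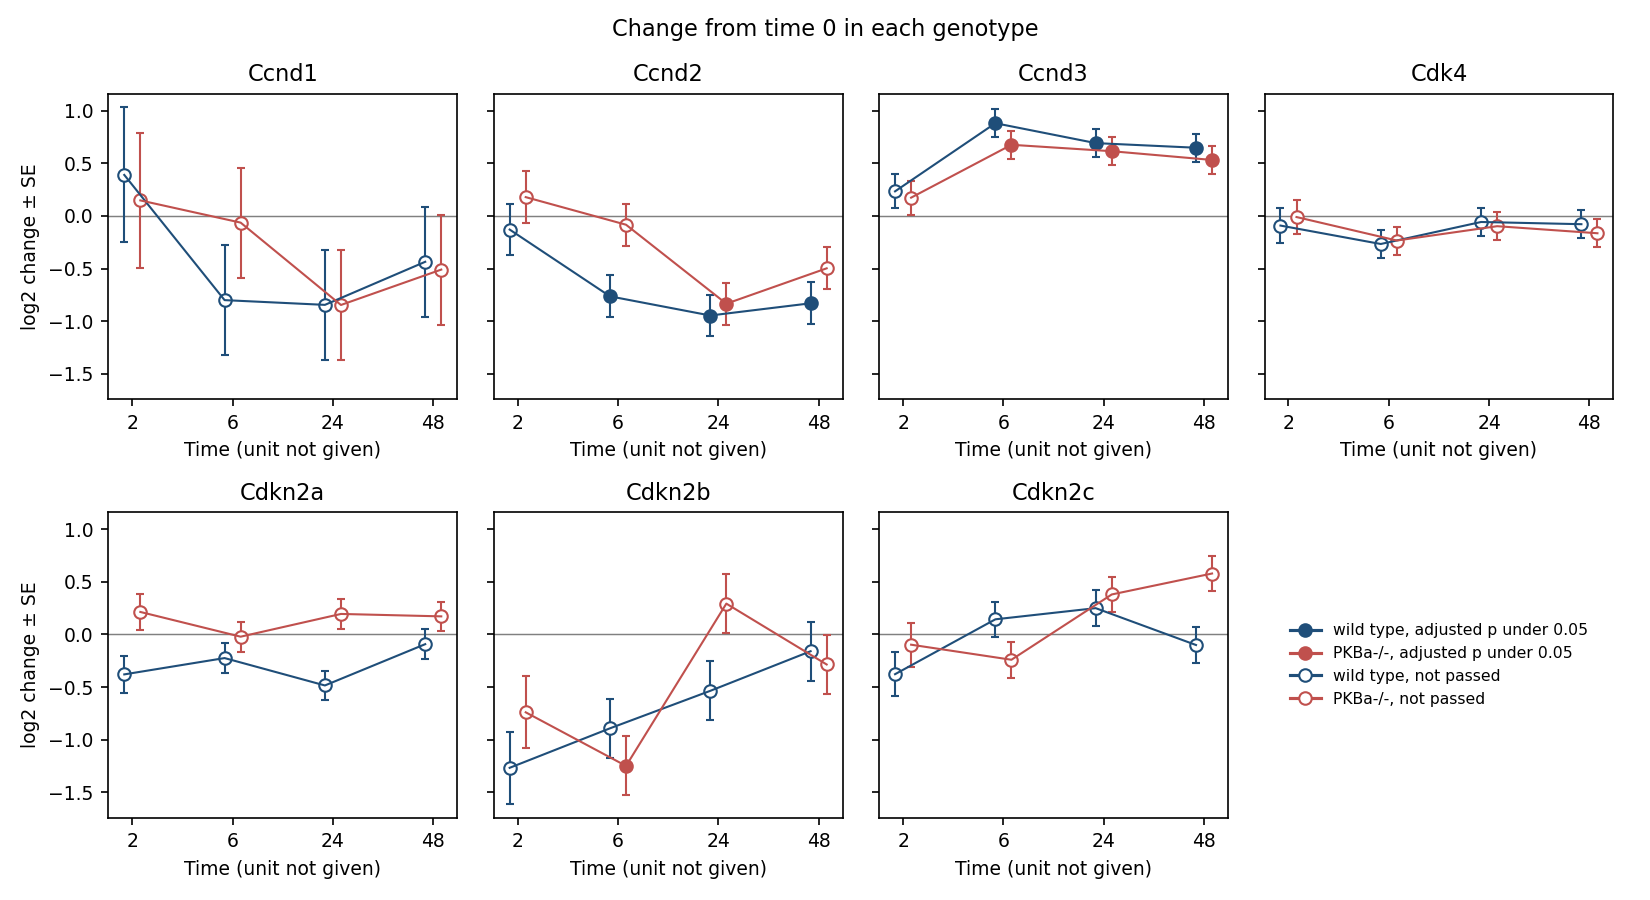
The log2 change from time 0 (vertical axis, ± SE from the limma fit) at each later time (horizontal axis, unit not given) in wild type and PKBa-/- cells for the 7 tested genes, filled where the adjusted p was under 0.05. Ccnd3 lies above 0 and Ccnd2 at times 24 and 48 below 0 in both genotypes, and Cdkn2b at time 6 in PKBa-/- is at -1.25.

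Whether the changes themselves differed between the genotypes was tested as an interaction. By limma, 0 of 7 passed (1.75% of all tested genes did), with adjusted p from 0.21 (Cdkn2c) to 1. At an unadjusted p under 0.05 there were 2, Cdkn2a and Cdkn2c, and the share of all tested genes at that threshold was not counted. With each array as a replicate and the pair as a random effect 2 passed, Cdkn2b (adjusted p = 0.044) and Cdkn2c (adjusted p = 0.01). In the fit as reported, a time course that passed in PKBa-/- and not in wild type is not shown to differ between them. For Cdkn2b and Cdkn2c that outcome depends on the fit.

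Among tested genes, those whose 10 group means followed a gene of this set most closely were taken for each member that spanned over 1 on the log2 scale. For Ccnd3 they were Vcan, which encodes the matrix proteoglycan versican (Pearson's r = 0.972 over 10 group means), Chchd7 (0.953) and Acad8 (0.952). Those for Ccnd1 were P4ha1, a collagen prolyl hydroxylase gene (0.963), the growth factor gene Pdgfa (0.961) and Rabgef1 (0.944). Those for Ccnd2 were the myosin light chain gene Myl12a (0.973), Lrrfip1 (0.956) and Papss2 (0.955). Those for Cdkn2b were the Mediator subunit gene Med12 (0.949), Emc2 (0.94) and the receptor gene Erbb2 (0.93). The points of these correlations share their arrays, and the genes were picked as the closest of 7436.

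The neighbours of these genes in the pathway were read from lists. Their counts averaged over times stand beside 26.5% of all tested genes higher in PKBa-/-, 20.9% lower and 47.4% either way. Among Rb and E2F genes, 2 of 7 tested were higher and 1 lower in PKBa-/- averaged over times: Rbl2, the Rb relative p130 (0.42 ± 0.09, adjusted p = 0.0016), E2f4 (0.15 ± 0.05, adjusted p = 0.027) and the repressor E2f6 (-0.54 ± 0.07, adjusted p = 4.2e-05). Among CDK2 cyclins and other CDK inhibitors, 3 of 9 were higher and 2 lower. They included cyclin E1, Ccne1 (0.42 ± 0.06, adjusted p = 5.1e-05), the ubiquitin ligase subunit Skp2 (0.40 ± 0.10, adjusted p = 0.006) and Cdkn1a, which encodes p21 (-0.56 ± 0.15, adjusted p = 0.009). Ccne1 also rose in PKBa-/- by time 48 (0.40 ± 0.11, adjusted p = 0.047). The medians of these lists were 0.03 and 0.12, beside 0.03 for all tested genes, and the shares that passed, 3 of 7 and 5 of 9, lay near those of all genes.

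Of E2F target genes, which carry out DNA replication, 4 of 13 were lower in PKBa-/- averaged over times (20.9% of all tested genes were) and 0 higher, also at an unadjusted p under 0.05 in limma, with a list median of -0.18. The helicase subunits Mcm7 (-0.46 ± 0.11, adjusted p = 0.0038) and Mcm4 (-0.38 ± 0.11, adjusted p = 0.012) and the loading factor Cdt1 (-0.34 ± 0.09, adjusted p = 0.011) were among them. The sign of the list median was not the same at time 0 and at time 48. At time 0, 4 of 13 passed, all lower in PKBa-/- (14.8% of all tested genes passed), and the list median was -0.55, while at time 48, 2 of 13 passed, both higher (23.2%), and the median was 0.23. From time 0 to time 48, 4 of 13 rose in PKBa-/- (3.07% of all tested genes did) and 0 in wild type (2.12%; also 0 rose at an unadjusted p under 0.05). The ribonucleotide reductase subunit Rrm2 rose by 1.09 ± 0.21 (adjusted p = 0.0068) and the polymerase clamp Pcna by 1.02 ± 0.19 (adjusted p = 0.0063). The median change of the list by time 48 was 0.53 in PKBa-/- and -0.34 in wild type. The course between was not steady. By time 6 the median was 0.53 in PKBa-/-, where 4 rose and 1 fell (18.4% of all tested genes passed), and 0.04 in wild type, where 1 rose and 1 fell (11.9%). By time 24 it was -0.03 and -0.25, and 0 passed in either (6.15% and 5.66%). The change by time 48 was not shown to differ between the genotypes for any of the 13. In limma 0 passed the test of that difference (1.14% of all tested genes did). At an unadjusted p under 0.05 there were 10, all with the higher change in PKBa-/-. The share of all tested genes at that unadjusted threshold was not counted, so these 10 have no baseline and are not a result.

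Of regulators upstream of the D cyclins, 8 of 23 were higher and 3 lower in PKBa-/- averaged over times, beside 26.5% and 20.9% of all tested genes, and the list median was 0.06 beside 0.03. The receptor Notch1 (1.40 ± 0.07, adjusted p = 1.1e-08) and the immediate early factor Egr1 (1.18 ± 0.18, adjusted p = 0.00015) were higher, and Klf4 lower (-1.14 ± 0.13, adjusted p = 2.2e-05). By time 48 Fos had risen in wild type (0.95 ± 0.12, adjusted p = 0.0012) and in PKBa-/- (0.61 ± 0.12, adjusted p = 0.0094). Myc rose in PKBa-/- (0.67 ± 0.16, adjusted p = 0.024), and Klf4 fell in wild type (-1.30 ± 0.27, adjusted p = 0.015).

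Of regulators of the INK4 locus, 1 of 11 was higher and 5 lower in PKBa-/- averaged over times, beside 26.5% and 20.9% of all tested genes, and the list median was -0.04 beside 0.03. The 6 that passed lay near the 47.4% of all genes. Id1 (-1.73 ± 0.06, adjusted p = 4.4e-10) and Id2 (-2.07 ± 0.07, adjusted p = 2.8e-10), which encode inhibitors of the E-box factors that act on Cdkn2a, were lower, and so was Zfp277 (-0.50 ± 0.07, adjusted p = 0.00013). By time 48 Id1 rose in PKBa-/- (0.98 ± 0.13, adjusted p = 0.00076) and in wild type (0.57 ± 0.13, adjusted p = 0.024), and Id2 rose in PKBa-/- (0.85 ± 0.15, adjusted p = 0.0046). Of 2 tested neighbours of Cdkn2a and Cdkn2b, Mtap was higher in PKBa-/- (0.33 ± 0.08, adjusted p = 0.004). Of 7 tested neighbours of Cdkn1c, the growth factor gene Igf2 was lower (-2.09 ± 0.38, adjusted p = 0.00061) and the tRNA synthetase gene Cars higher (0.26 ± 0.07, adjusted p = 0.0099). Cars fell by time 48 in wild type (-1.08 ± 0.15, adjusted p = 0.002) and in PKBa-/- (-0.67 ± 0.15, adjusted p = 0.016).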

How the data were processed

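The deposited values are linear intensities (8.62 to 19337), 1 for each probe set on each array, of biotinylated cRNA per the labels. The authors' summarization and normalization are not given in the sources used here. Gene symbols came from the platform annotation: 20380 probe sets had 1 gene and were used, 691 had several, 1555 had none and 64 were controls. Each gene was read on its brightest probe set as log2(signal + 32), with no further normalization, and the lowest 40% of 12393 genes were left out, which left 7436. Folds are on this scale and understate changes of dim genes. The 2 arrays of a replicate pair were averaged, and 18 values went into a limma fit (limma 3.58.1, R 4.3.3) with 10 group means (8 residual and 4.24 prior degrees of freedom); a time 2 group, 1 pair, was assumed to vary like the others. Tests were two-sided, adjusted by Benjamini-Hochberg over all tested genes within each comparison, and passed under 0.05. The procedure was tested on simulated data. Alternatives were other offsets, filters, probe set summaries, quantile normalization, replicate units, blocks, single pairs of replicates and leaving out each array. Intervals (95%) are from the fit.

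The members and lists were chosen with earlier results of these data known. Named besides the members are up to 3 genes of a list with the largest averaged genotype difference and up to 2 with the largest change at time 48 in each genotype, among those that passed, and the 3 genes most like each member whose group means span over 1.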

Additional observations from a re-analysis of the deposited data

Results flagged for a closer look

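In wild type cells at time 48, Ccnd2 replicate 4 (1837) stood below the other arrays of its group (2146 to 2203), with a gap of 0.855 of the group's range on the log2 scale. In wild type cells at time 24, Cdkn2c replicate 4 (1582) stood above the others (1281 to 1297), with a gap of 0.943 of the range. Each gap was over the limit of Dixon's test for 4 arrays, and 72 groups were looked at. Chance passes that limit in about 1 of 20 groups of 4 independent arrays. The arrays here form close pairs, so that rate may not hold for them. Both time 2 arrays of Cdk6 lay above the time 0 mean in wild type and below it in PKBa-/-, and the change in signal was -13.9 in PKBa-/- relative to wild type. That difference was not tested with the other genes, since Cdk6 was under the signal limit; in the limma fit with no filter it was -0.17 ± 0.16 (log2, adjusted p = 0.96).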

How the results depend on the processing

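The report rests on 23 genotype differences and changes over time of single genes that passed. Under the alternatives these gave 1131 values, of which 1123 passed in the same direction, 8 no longer passed and 0 reversed. The 8 were Ccnd1 averaged over times with no filter, Ccnd2 in PKBa-/- at time 24 in 3 fits, Ccnd3 between genotypes at time 6 in 2, and Cdkn2a averaged over times in 2 (replicates 3 and 4 alone, adjusted p = 0.37, and without wild type replicate 1 of time 2). Of 5099 alternative values of differences that had not passed, 161 passed and 0 of these reversed. Their causes were not tested. Dim genes (Cdk6, Cdkn1c and partly Cdkn2a) and 2 pairs a group limit what could be detected. Most alternatives left out 1 array while the other array of its pair stayed in, so they could move a value little. Fits within a single pair of replicates took its 2 arrays as replicates. There Ccnd1 averaged over times still counted as passed at -0.16 in replicates 3 and 4, beside -0.75 as reported. The totals are therefore a weak check.

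The number of the 7 genes that changed over time in wild type, 2 as reported, was 6 with each array as a replicate, 5 with the pair as a random effect (correlation 0.66), 7 within replicates 1 and 2 and 6 within replicates 3 and 4. The number whose change differed between genotypes, 0 as reported, was 4, 2, 5 and 5 in these fits. Ccnd1 in wild type passed with the random effect (adjusted p = 0.041), and so did Cdkn2b (adjusted p = 0.00043) and Cdkn2c (adjusted p = 0.045). Leaving out each array in turn gave 4 to 5 of 7 for the averaged genotype difference, 4 at 1 or more times, 2 to 3 for wild type, 4 for PKBa-/- and 0 for the interaction. Of all 7436 genes, 3521 passed averaged over times and 5428 within replicates 1 and 2. By the F tests 1482 genes passed in wild type, 1860 in PKBa-/- and 130 in the interaction, against 4633, 4681 and 1614 with each array as a replicate, 6246, 6001 and 3952 within replicates 1 and 2, and 4160, 4133 and 2220 within replicates 3 and 4. With the random effect 2383 passed in wild type and 501 in the interaction.

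Replicate numbers are shared between groups, but deviations of same-numbered arrays correlated from -0.116 to 0.324 between the genotypes (mean 0.126) and from -0.0126 to 0.705 between time 0 and later times of a genotype (mean 0.418). Not every correlation was over 0.1 and the labels state no pairing, so the fit without the block was kept, although the mean within a genotype was well above 0. With a replicate block (the pair as a covariate) 5 of 7 genes passed averaged over times, 5 at 1 or more times, 3 over time in wild type, 4 in PKBa-/- and 0 in the interaction; Ccnd2 at time 6 then passed between genotypes (0.50, adjusted p = 0.012). With a replicate block within genotype, 6 changed in wild type, 5 in PKBa-/- and 2 in the interaction; Ccnd1 then passed in wild type (adjusted p = 0.011, and -0.80 at time 6 and -0.84 at time 24) and in PKBa-/- (adjusted p = 0.0073). With a replicate block of each array, 6 and 4 did. All genes that passed the F tests numbered 2831, 3109 and 438 with the block, 3969, 4199 and 1111 within genotype and 5301, 5222 and 2393 by array.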

Other observations

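Cdkn2d, which encodes p19 and completes the INK4 family, was in a pathway list and is named here outside the rule, after its values were seen. It did not pass between the genotypes (averaged difference 0.12 on the log2 scale, limma adjusted p = 0.13). By the F test over the 4 later times it changed in PKBa-/- (adjusted p = 0.0063) and in wild type (adjusted p = 0.047). Its change from time 0 was -0.45 by time 2 and 0.42 by time 48 in PKBa-/-, and -0.49 and 0.06 in wild type, none of which passed alone (adjusted p from 0.063 to 0.83 for Cdkn2d). The change over time was not shown to differ between the genotypes (interaction, adjusted p = 1).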
